A study of Rattus norvegicus with 12 samples.

Results

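Hypoxia response and glycolysis were read here from 5 genes, taken by a fixed list of Ensembl identifiers: Hif1a (ENSRNOG00000008292), Vegfa (ENSRNOG00000019598), Slc2a1 (ENSRNOG00000007284), Ldha (ENSRNOG00000013009) and Gapdh (ENSRNOG00000018630). All 5 were present among the 43206 genes of the deposited tables, and all 5 were among the 27885 genes tested. The symbols come with the list of identifiers, because the deposited files give identifiers alone. The tissue sequenced was prefrontal cortex, taken from SD rats on postnatal day 28. There were 4 normal libraries, 4 from the model of hypoxic-ischemic brain damage (the HIBD model) and 4 from an acupuncture group. No genotype, sham operation or time since injury is named in the labels, and the acupuncture group is placed in injured rats by the title of the series only. Replicates are called by the number in their label. Whether a number stands for a separate animal is not stated, and the p-values therefore reflect the spread among libraries, which may be technical.

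Cells answer a shortage of oxygen mainly through the transcription factor HIF-1. Its alpha subunit, made from Hif1a, is hydroxylated and degraded when oxygen is plentiful, and when oxygen is scarce it persists, pairs with ARNT and binds hypoxia response elements near its target genes. Known targets include Vegfa, the growth factor for blood vessels, Slc2a1, the glucose carrier GLUT1 of brain endothelium and glia, and the glycolytic genes Ldha and Gapdh. Because the control of HIF-1 alpha lies largely in the stability of the protein, the level of Hif1a mRNA is not a measure of HIF-1 activity.

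The core of a hypoxia response element is read as ACGTG or GCGTG. Promoter sequences were matched by symbol to RefSeq on the build GRCr8, which is not the build of the deposited files, and all 5 symbols matched. The 250 bases before the gene start are shown for the 4 genes whose levels the results below turn on, 5′ to 3′, with every ACGTG or GCGTG on either strand in capitals. Vegfa has 2 starts in that table, and the shown window belongs to the start that lies upstream.

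Vegfa (GRCr8, chr9:22452604-22452853, + strand): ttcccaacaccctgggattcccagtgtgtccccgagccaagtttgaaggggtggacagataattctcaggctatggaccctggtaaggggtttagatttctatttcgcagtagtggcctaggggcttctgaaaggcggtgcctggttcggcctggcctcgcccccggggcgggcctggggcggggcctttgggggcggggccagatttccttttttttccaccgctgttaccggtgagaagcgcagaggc

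Slc2a1 (GRCr8, chr5:138002272-138002521, + strand): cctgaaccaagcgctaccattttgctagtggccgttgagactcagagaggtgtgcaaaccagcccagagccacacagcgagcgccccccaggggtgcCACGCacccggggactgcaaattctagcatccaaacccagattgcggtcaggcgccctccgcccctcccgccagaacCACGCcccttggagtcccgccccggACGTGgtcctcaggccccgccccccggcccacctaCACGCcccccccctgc

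Ldha (GRCr8, chr1:106507842-106508091, + strand): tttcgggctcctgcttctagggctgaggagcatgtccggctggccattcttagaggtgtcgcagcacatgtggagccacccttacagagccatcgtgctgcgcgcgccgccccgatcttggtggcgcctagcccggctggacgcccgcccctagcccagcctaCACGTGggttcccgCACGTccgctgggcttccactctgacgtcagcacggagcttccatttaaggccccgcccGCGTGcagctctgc

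Gapdh (GRCr8, chr4:159652468-159652717, - strand): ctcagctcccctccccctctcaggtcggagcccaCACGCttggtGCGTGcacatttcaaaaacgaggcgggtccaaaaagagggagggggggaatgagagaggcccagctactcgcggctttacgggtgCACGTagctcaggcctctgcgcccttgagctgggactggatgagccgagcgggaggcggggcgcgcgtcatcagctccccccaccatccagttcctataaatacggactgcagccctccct

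Slc2a1 had 1 match to ACGTG and 3 to GCGTG in this window, Ldha had 3 and 1, and Gapdh had 1 and 2. In Ldha, 2 of the matches to ACGTG are the opposite strands of a single palindrome and overlap. Hif1a, whose sequence is not shown, had 3 matches to ACGTG, of which 2 overlap in the same way. Neither of the 2 Vegfa windows held a match, which says only that these letters are not in those windows. Of 33469 promoter windows of this length, 16.6% held ACGTG on either strand, 25.9% held GCGTG and 36.7% held at least 1 of them. A match is a description of the sequence and does not show a binding site.

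Depth and overall pattern differed between libraries. The total estimated count ranged from 714904584 to 1090316733, but the sources used here do not say how these estimates relate to reads, and no counting interval is given. Over 8476 Ensembl genes averaging 3 or more in log2 CPM, the principal component of largest variance held 39% of it. The sign of that component is arbitrary and was set so that its r with Ldha was positive. On that component all 4 acupuncture libraries (10.9 to 23.5) lay apart from all 4 normal libraries (-30.7 to -5.59), while the HIBD model libraries fell on both sides, replicates 8 and 16 at 16.6 and 29 and replicates 2 and 18 at -22.6 and -20.6. Loci named by a transcript assembler took from 0.795% to 0.874% of the estimated counts in normal replicates 8, 11 and 13 and 1.51% in normal replicate 10, against 1.43% to 2.35% in the HIBD model group and 1.13% to 2.24% in the acupuncture group. Cell type markers were not analysed here, so the tissue label was not checked against them. In this bulk tissue, fewer cells of a type and less RNA per cell cannot be told apart.

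Per length, the glycolytic enzymes stood far above the regulator and the growth factor. Gapdh, which oxidises glyceraldehyde 3-phosphate in glycolysis, averaged 679 ± 64.9 FPKM in normal, 586 ± 38.1 FPKM in HIBD model and 619 ± 63.7 FPKM in acupuncture libraries (SD, n = 4 each). Its mean over the 12 libraries ranked 42 among 35753 genes above 0. Ldha, the subunit of lactate dehydrogenase that favours lactate formation, averaged 164 ± 22.2, 137 ± 29.4 and 151 ± 35.8 FPKM in the same order of groups. Slc2a1 averaged 58.9 ± 6.43, 46.5 ± 15.1 and 47.4 ± 9.29 FPKM. Hif1a averaged 28.5 ± 3.25, 25.1 ± 6.31 and 22.5 ± 2 FPKM, and Vegfa 13.9 ± 0.779, 19.6 ± 4.21 and 20.4 ± 2.79 FPKM. The order Gapdh, Ldha, Slc2a1, Hif1a, Vegfa held in 11 of 12 libraries. The exception was acupuncture replicate 22, where Vegfa (23.5 FPKM) stood above Hif1a (20.8 FPKM). Hif1a and Vegfa were the neighbours whose ranges overlapped in the HIBD model and acupuncture groups, from 19.5 to 31.3 against 17.1 to 25.9 FPKM in HIBD model libraries and from 20.8 to 24.7 against 16.9 to 23.5 FPKM in acupuncture libraries. In normal libraries Hif1a lay between 25.5 and 32.2 FPKM, above all Vegfa values, which lay between 12.8 and 14.6 FPKM. The ranges of Slc2a1 and Hif1a also overlapped in HIBD model libraries, where Slc2a1 ran from 28.6 to 60 FPKM. Slc2a1 was still the higher of the pair in each library. The order and the rank of Gapdh rest on the division by length, which CPM does not make. Normal means were 141 CPM for Gapdh, 102 for Slc2a1, 95.2 for Ldha, 80.1 for Hif1a and 13.1 for Vegfa. There Slc2a1 stood above Ldha, while Ldha was the higher in HIBD model (86.7 against 84.7 CPM) and acupuncture libraries (95.6 against 90.2 CPM).

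HIBD model libraries were set against normal ones to see what changed in the injury model. Vegfa was the member with the largest difference, and every HIBD model library had more of it than any normal library. In CPM (estimated counts over the TMM-scaled library total, the scale used here between groups), Vegfa was at 13.5, 13.7, 13.6 and 11.5 in normal replicates 8, 10, 11 and 13. It was at 15.6, 20, 18.9 and 24 CPM in HIBD model replicates 2, 8, 16 and 18. The groups did not overlap, and HIBD model replicate 2 lay nearest to the normal libraries. The group means were 13.1 ± 1.04 and 19.6 ± 3.46 CPM (SD, n = 4 each). The log2 fold change was 0.59 (SE 0.14, 95% confidence interval 0.28 to 0.90), which did not pass over all genes (edgeR quasi-likelihood test, unadjusted p = 0.00157, adjusted p = 0.102).

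**Figure D1:**
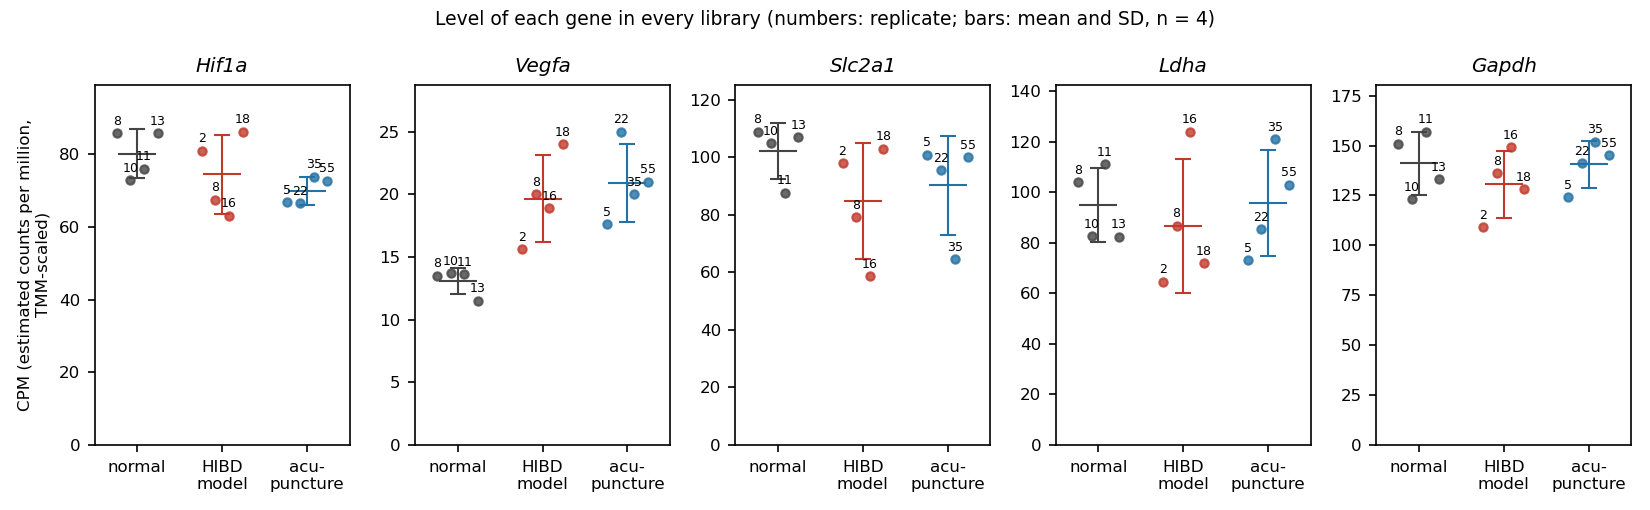
CPM of each gene (y axis, from 0, own scale per panel) in the 4 libraries of each group, with the replicate number beside each point and bars for mean and SD. Vegfa lies between 11.5 and 13.7 CPM in normal libraries and between 15.6 and 25 CPM in the other groups, while the groups overlap for the other 4 genes.

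In edgeR, 0 of the 5 genes had an adjusted p under 0.05 for HIBD model against normal, where 0.0968% of all genes passed. Vegfa alone had an unadjusted p under 0.05, which is 1 of 5 genes against 22.4% of all genes tested, so the count is near the background. Vegfa was also the only member whose groups did not overlap, against 11.5% of all genes. DESeq2 called 1 of the 5, Vegfa (adjusted p = 0.0015), and 13.5% of all genes with an adjusted p, while limma-voom called 0 of the 5 and 0.0179% of all genes. In edgeR without normal replicate 10, Vegfa also passed (adjusted p = 0.0333), as did 10.6% of all genes, so the change of call is not particular to Vegfa. Its adjusted p ranged from 0.0015 to 0.464 over 23 alternatives, with a log2 fold change from 0.45 to 0.69. The highest adjusted p came with 1 surrogate variable in edgeR, where 5 of all genes passed. There the log2 fold change of Vegfa was 0.52 (SE 0.19, edgeR unadjusted p = 0.023). The share of assembled loci was mostly higher in HIBD model than in normal libraries. The groups overlapped, with normal replicate 10 (1.51%) above HIBD model replicate 2 (1.43%). Over the 12 libraries Pearson's r of Vegfa with that share was 0.67, and the part of the share in the Vegfa difference was not tested.

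Hif1a, the regulator itself, was at 85.8, 72.8, 76 and 85.7 CPM in normal replicates 8, 10, 11 and 13 and at 80.9, 67.5, 63.1 and 86.2 CPM in HIBD model replicates 2, 8, 16 and 18. The groups overlapped, and the highest library of all was HIBD model replicate 18. The log2 fold change was -0.11 (95% confidence interval -0.33 to 0.12, edgeR adjusted p = 0.607), and without HIBD model replicate 16 it was -0.03. Scaled to Gapdh it was 0.03, where the median of all genes was 0.12 in place of 0.01, so that Hif1a stayed below that median.

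Slc2a1 was at 109, 105, 87.7 and 107 CPM in normal replicates 8, 10, 11 and 13 and at 98, 79.2, 58.7 and 103 CPM in HIBD model replicates 2, 8, 16 and 18. The HIBD model libraries spread over a wider range that reached below all normal libraries. The log2 fold change of -0.27 (95% confidence interval -0.68 to 0.14, edgeR adjusted p = 0.444) became -0.13 without HIBD model replicate 16. Ldha was at 104, 82.7, 111 and 82.4 CPM in normal and at 64.6, 86.7, 124 and 71.8 CPM in HIBD model libraries in the same order. Its lowest and its highest value of all 12 libraries both fell in the HIBD model group. The log2 fold change was -0.13 (95% confidence interval -0.62 to 0.35, edgeR adjusted p = 0.776), and -0.36 without HIBD model replicate 16 (edgeR adjusted p = 0.339, with 0.339 to 0.989 over 23 alternatives) and -0.02 without HIBD model replicate 2. Gapdh was at 151, 123, 157 and 133 CPM in normal and at 109, 136, 149 and 128 CPM in HIBD model libraries. These overlapped, with a log2 fold change of -0.11 (95% confidence interval -0.35 to 0.14, edgeR adjusted p = 0.624). The value for Gapdh was -0.03 without HIBD model replicate 2. With the trend on transcript length removed it was 0.06, where the median of all genes was 0.10. The median log2 fold change of the 5 genes was -0.11, beside 0.01 over all genes tested and -0.07 over Ensembl genes.

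Acupuncture libraries were set against those of the HIBD model to see what differed with treatment. For 0 of the 5 genes did the difference between these groups exceed the spread of their libraries. Vegfa was at 17.6, 25, 20 and 21 CPM in acupuncture replicates 5, 22, 35 and 55, within the range of the HIBD model libraries except for replicate 22, which lay above them. Its mean was 20.9 ± 3.07 CPM (SD, n = 4), and the log2 fold change from the HIBD model group was 0.09 (95% confidence interval -0.22 to 0.40, edgeR adjusted p = 1). For Hif1a, at 66.7, 66.5, 73.8 and 72.7 CPM, the log2 fold change was -0.09 (95% confidence interval -0.32 to 0.14, edgeR adjusted p = 1). Acupuncture libraries lay close together for this gene, with a SD of 3.86 CPM against 10.9 CPM in the HIBD model group, a difference in spread that was not tested.

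Slc2a1 was at 101, 95.5, 64.6 and 100 CPM in acupuncture replicates 5, 22, 35 and 55, so that replicate 35 lay apart from the other 3. The log2 fold change from the HIBD model group was 0.09 (95% confidence interval -0.32 to 0.50, edgeR adjusted p = 1). It was 0.22 without acupuncture replicate 35 and -0.05 without HIBD model replicate 16. Ldha was at 73, 85.3, 121 and 103 CPM, a log2 fold change of 0.14 (95% confidence interval -0.34 to 0.62, edgeR adjusted p = 1), which was 0.01 without acupuncture replicate 35 and 0.36 without HIBD model replicate 16. Gapdh was at 124, 141, 152 and 145 CPM, a log2 fold change of 0.11 (95% confidence interval -0.14 to 0.35, edgeR adjusted p = 1), which was 0.02 without HIBD model replicate 2 and 0.18 without HIBD model replicate 16. All 5 genes overlapped between these groups. Of all genes, 0% passed the adjusted p, 5.31% had an unadjusted p under 0.05 and 2.27% did not overlap, against 0 of the 5 genes on each count. DESeq2 and limma-voom also called 0 of the 5, and 0.679% and 0% of all genes. The intervals ran from -0.22 to 0.40 for Vegfa, from -0.32 to 0.50 for Slc2a1 and from -0.34 to 0.62 for Ldha. Differences within these bounds, in either direction, therefore remain possible.

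**Figure D2:**
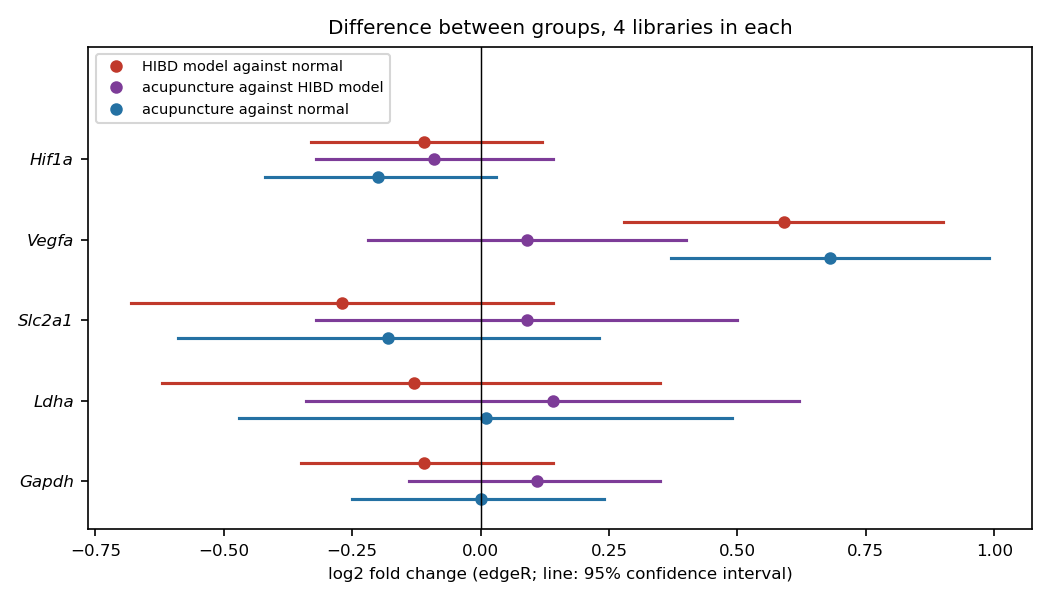
Log2 fold change from edgeR (x axis) with its 95% confidence interval for each gene (y axis) in the 3 comparisons. The intervals of Vegfa against normal lie above 0 (0.28 to 0.90 and 0.37 to 0.99), and all other intervals include 0.

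Set against normal, the treated group shows what remained different, with the same normal libraries as in the HIBD model comparison. Vegfa was again the member with the largest difference. All 4 acupuncture libraries, from 17.6 to 25 CPM, lay above all 4 normal libraries, from 11.5 to 13.7 CPM. The log2 fold change was 0.68 (SE 0.14, 95% confidence interval 0.37 to 0.99), which did not pass over all genes (edgeR unadjusted p = 0.000559, adjusted p = 0.0994). Side by side, the 2 comparisons with normal gave 0.59 and 0.68 for Vegfa, -0.11 and -0.20 for Hif1a, -0.27 and -0.18 for Slc2a1, -0.13 and 0.01 for Ldha, and -0.11 and 0.00 for Gapdh.

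For acupuncture against normal, 0 of the 5 genes had an edgeR adjusted p under 0.05, where 0.0825% of all genes passed. At an unadjusted p under 0.05 there was 1 of 5, Vegfa, against 24.5% of all genes tested, so that this count is also near the background. Vegfa alone did not overlap between the groups, against 17.6% of all genes. DESeq2 called 1 of the 5, Vegfa (adjusted p = 0.000224), and 15.6% of all genes with an adjusted p, while limma-voom called 0 of the 5 and 0.0323% of all genes. Vegfa also passed in edgeR fitted to these 2 groups alone (adjusted p = 0.0344), where 3.07% of all genes passed. It passed in limma-trend on log2(FPKM + 0.1) (adjusted p = 0.0475), where 6.24% passed, and in edgeR without normal replicate 10 (adjusted p = 0.0223), where 10.8% passed. Over 23 alternatives its adjusted p ranged from 0.000224 to 0.998 and its log2 fold change from 0.51 to 0.76. The highest adjusted p came with 1 surrogate variable in edgeR, where 0 of all genes passed. There the log2 fold change of Vegfa was 0.59 (SE 0.22, edgeR unadjusted p = 0.0226). The leading principal component separates these groups too, r of Vegfa with it was 0.60, and its part in the Vegfa difference was not tested. Hif1a had a log2 fold change of -0.20 (95% confidence interval -0.42 to 0.03, edgeR adjusted p = 0.271). The values of Slc2a1, Ldha and Gapdh had edgeR adjusted p-values of 0.597, 0.99 and 0.987, with intervals of -0.59 to 0.23, -0.47 to 0.49 and -0.25 to 0.24. Without acupuncture replicate 35 the log2 fold change of Slc2a1 was -0.05.

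Ratios within a library do not depend on the scaling between libraries, and they were taken from FPKM values. The log2 ratio of Vegfa to Gapdh lay between -5.71 and -5.35 in normal libraries, between -5.15 and -4.59 in HIBD model libraries and between -5.09 and -4.67 in acupuncture libraries. Neither group overlapped with normal. Over all genes, the ratio to Gapdh did not overlap for 8.54% between HIBD model and normal and for 12.9% between acupuncture and normal. Set against Slc2a1, Vegfa lay between -2.33 and -1.80 in normal, -1.76 and -0.74 in HIBD model and -1.62 and -0.79 in acupuncture libraries, again with no overlap with normal. Over all genes, the ratio to Slc2a1 did not overlap for 10.7% between HIBD model and normal and for 12% between acupuncture and normal. Set against Hif1a, the mean log2 ratio was -1.03 in normal, -0.34 in HIBD model and -0.15 in acupuncture libraries. HIBD model replicate 2 (-0.80) stood at the edge of the normal range for that ratio. Set against Ldha, HIBD model replicate 16 (-3.40) lay within the normal range of -3.73 to -3.29, and the acupuncture libraries ran from -3.28 to -2.47.

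**Figure D3:**
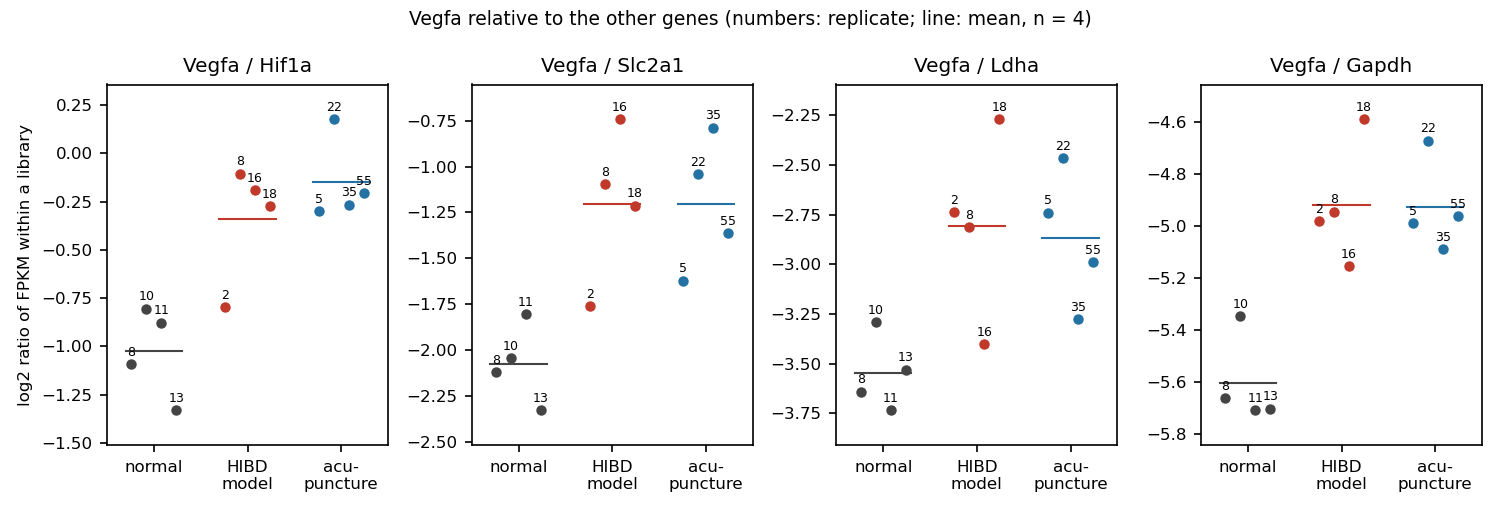
Log2 ratio of Vegfa FPKM to that of Hif1a, Slc2a1, Ldha and Gapdh within each library (y axis, own scale per panel), by group, with the mean as a line. Normal libraries are lowest against Gapdh (-5.71 to -5.35) and Slc2a1 (-2.33 to -1.80), and HIBD model replicate 16 falls among them against Ldha.

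In FPKM, most of the Vegfa difference lay in ENSRNOT00000026559, the most abundant of its 8 transcript rows. This row averaged 8.47, 14.1 and 13.2 FPKM in normal, HIBD model and acupuncture libraries. The whole gene averaged 13.9, 19.6 and 20.4 FPKM. Alternative splicing of Vegfa gives secreted forms that differ in how firmly they are held by the matrix around cells, and the files do not say which form a row encodes. That row held 61 ± 6% of the FPKM of the gene in normal, 71.4 ± 5.31% in HIBD model and 64.3 ± 9.77% in acupuncture libraries (SD, n = 4). Its level was 8.74, 7.96, 7.9 and 8.46 CPM in normal replicates 8, 10, 11 and 13. It was 10.4, 14.5, 13.5 and 18.9 CPM in HIBD model replicates 2, 8, 16 and 18, and 10.3, 17.7, 10.7 and 16.1 CPM in acupuncture replicates 5, 22, 35 and 55. Neither group overlapped with normal, which was so for 9.96% of all transcript rows between HIBD model and normal and 13.6% between acupuncture and normal. The log2 fold changes were 0.79 (SE 0.22, edgeR adjusted p = 0.187) and 0.73 (SE 0.22, edgeR adjusted p = 0.193), and neither passed.

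Row ENSRNOT00000026637, the next in abundance, held 25.4 ± 9.47%, 16.5 ± 4.5% and 21.9 ± 8.25% of the gene in normal, HIBD model and acupuncture libraries. Its levels overlapped between the groups, with 1.44 to 4.71 CPM in normal and 2.15 to 4.08 CPM in HIBD model libraries, and its log2 fold change there was -0.12 (95% confidence interval -0.93 to 0.70, edgeR adjusted p = 0.943). Between acupuncture and normal the log2 fold change of this row was 0.36 (95% confidence interval -0.46 to 1.18, edgeR adjusted p = 0.711). In acupuncture replicate 35 the row reached 6.75 CPM and 33.5% of the gene. The assembled row TCONS_00354615 held from 4.71% to 11.1% of the gene. Its log2 fold change was 0.28 (95% confidence interval -0.29 to 0.85) between HIBD model and normal. Between acupuncture and normal it was 0.73 (95% confidence interval 0.16 to 1.30, edgeR unadjusted p = 0.0169, adjusted p = 0.212). Acupuncture libraries, from 1.16 to 1.87 CPM, did not overlap with normal ones, from 0.704 to 1.08 CPM, as for 13.6% of all transcript rows. ENSRNOT00000085241 was listed at 0 in all 12 libraries, and ENSRNOT00000083811 in 11 of them. The shares of the rows are the authors' estimates and changed from library to library within a group, so they are given as a description.

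**Figure D4:**
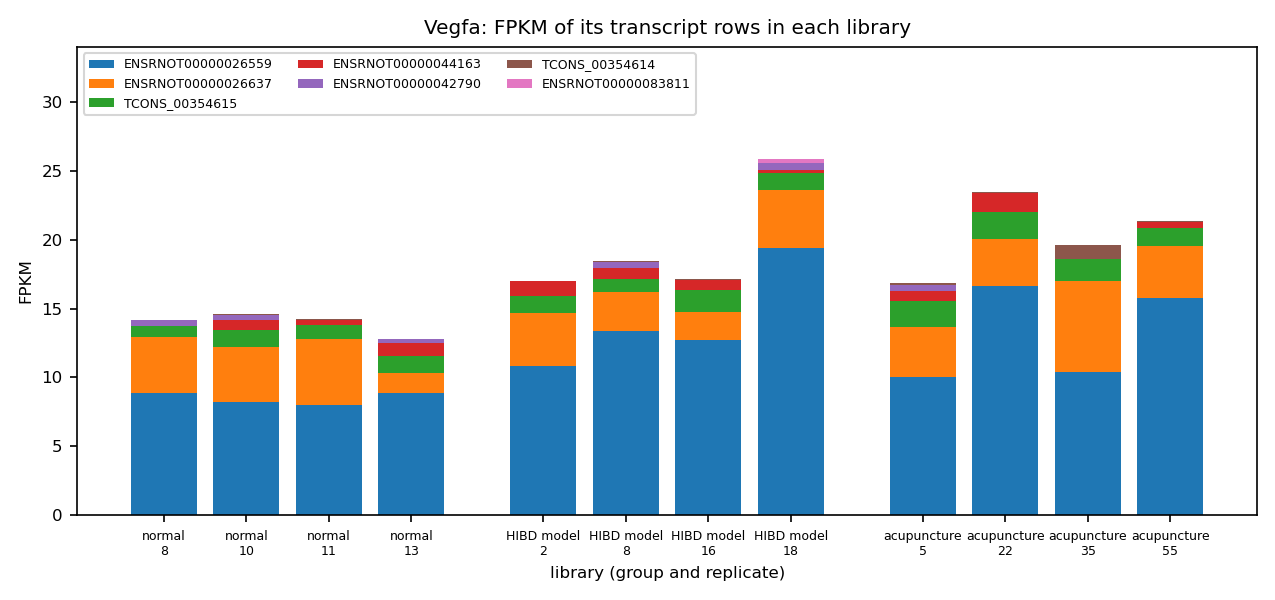
FPKM of the Vegfa transcript rows (stacked, y axis from 0) in each library. Row ENSRNOT00000026559 holds 53.1% to 75.1% of the total in every library and ENSRNOT00000026637 11.8% to 33.6%.

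The other members rested almost wholly on a single row. Row ENSRNOT00000049725 held 92.6% to 99.1% of Hif1a, ENSRNOT00000064452 held nearly all of Slc2a1, where the other row had at most 0.0138%, and Ldha and Gapdh had 1 row each. Of the transcript rows of the 5 genes, 14 were among the 53666 tested and none passed an adjusted p of 0.05 in any comparison in edgeR, where 0.0335%, 0.00745% and 0.0559% of all rows passed between HIBD model and normal, acupuncture and HIBD model, and acupuncture and normal. At an unadjusted p under 0.05 there were 1, 0 and 3 of the 14, against 16%, 4.58% and 17.6% of all rows. Among those 3 was TCONS_00354614 of Vegfa (log2 fold change 3.96, edgeR unadjusted p = 0.0401, adjusted p = 0.263). This row was at 0.943 CPM in acupuncture replicate 35 and at most 0.122 CPM in every other library. Both enzymes have processed pseudogenes with near-identical sequence in rodents, Gapdh in particular, and how reads shared with such copies were assigned is not given in the sources used here, so levels of Gapdh and Ldha are uncertain to that extent.

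Among the libraries, the enzymes moved as a pair. Ldha and Gapdh were both lowest in HIBD model replicate 2, at 64.6 and 109 CPM, and both high in normal replicate 11, HIBD model replicate 16 and acupuncture replicate 35, at 111, 124 and 121 CPM for Ldha and 157, 149 and 152 CPM for Gapdh. Over the 12 libraries Pearson's r of their log2 CPM was 0.92 (Spearman's rho 0.90), 0.91 for deviations from the group means, and 0.94 without the 2 libraries farthest from the median of Ldha. Among 8475 genes ranked by r with Gapdh, Ldha stood at 24. In the ranking by r with Ldha, Gapdh stood at 101, so many other genes followed Ldha more closely. These values describe libraries that share tissue, kit and processing, and no p is given. The size of the swing differed: from the lowest to the highest library Ldha spanned 1.92-fold and Gapdh 1.44-fold.

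Slc2a1 ran against Ldha, most of all in HIBD model replicate 16 and acupuncture replicate 35. The carrier was lowest where Ldha was highest, at 58.7 and 64.6 CPM in these libraries, which also had the highest values on the leading principal component. The log2 ratio of Slc2a1 to Ldha was -2.66 and -2.49 there and between -1.93 and -0.98 in the other 10 libraries. Pearson's r between Slc2a1 and Ldha was -0.65 (Spearman's rho -0.53), and -0.17 without those 2 libraries, so the overall relation rests on them. For deviations from the group means r was -0.85, and -0.58 without those 2 libraries. In the normal group, too, replicate 11 had the lowest Slc2a1 (87.7 CPM) and the highest Ldha (111 CPM). Hif1a and Slc2a1 had r of 0.57 (rho 0.59), which was 0.48 without HIBD model replicate 18 and normal replicate 8. Vegfa and Hif1a had r of -0.44 (rho -0.41), which was -0.71 without the same 2 libraries. For deviations from the group means r was -0.01, and -0.60 without those 2 libraries. Along the leading principal component, its sign set by Ldha, r was -0.74 for Slc2a1, -0.87 for Hif1a, 0.56 for Ldha, 0.48 for Gapdh and 0.60 for Vegfa. The part of that component in these relations was not tested.

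**Figure D5:**
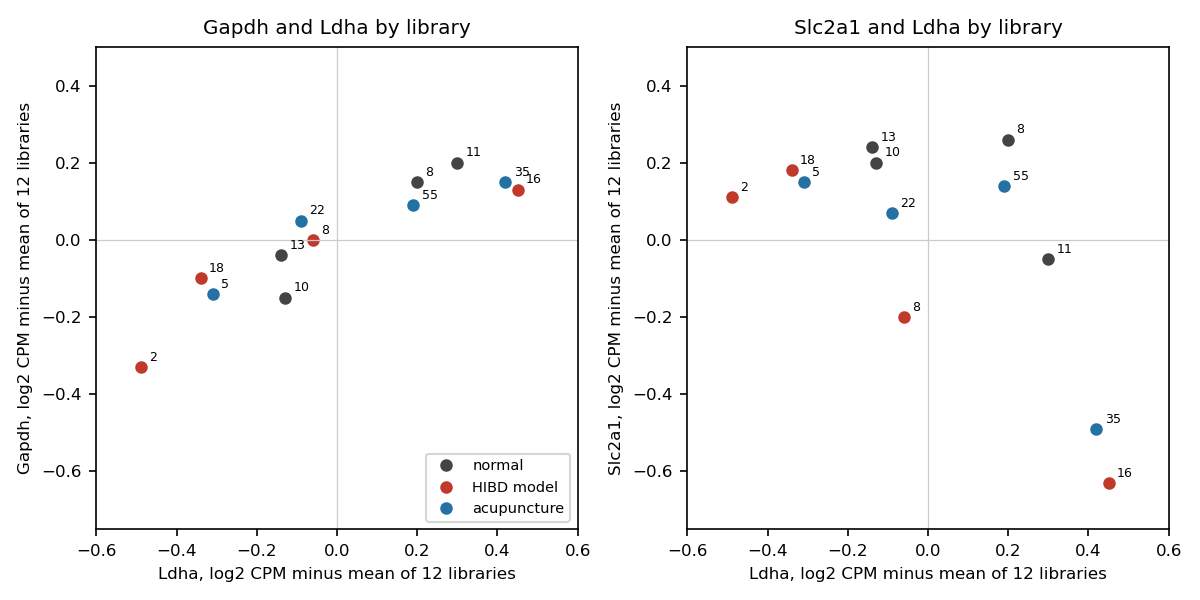
Gapdh (left) and Slc2a1 (right) against Ldha, each as log2 CPM minus the mean of the 12 libraries, with replicate numbers beside the points. Gapdh rises with Ldha over all 12 libraries, and Slc2a1 is lowest in HIBD model replicate 16 and acupuncture replicate 35, the libraries with the highest Ldha.

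Gapdh is often used as a reference gene. Its SD over the 12 libraries was 0.16 on the log2 scale, and 35% of 4359 Ensembl genes averaging 5 or more in log2 CPM had a smaller one. Hif1a had the same SD of 0.16. Slc2a1, Ldha and Vegfa varied more, with 0.29, 0.31 and 0.36, against a median of 0.19 over those 4359 genes. For Vegfa, whose own mean lay under that level, the SD within groups was 0.20, while it was 0.29 for Slc2a1 and 0.33 for Ldha, so that Vegfa was the member whose spread lay more between the groups than within them.

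The gene most like each member over the 12 libraries was taken by the highest Pearson's r among 8471 other Ensembl genes averaging 3 or more in log2 CPM, as a description. For Vegfa it was ENSRNOG00000005278 (r 0.91, rho 0.85), at 155, 237 and 264 CPM in normal, HIBD model and acupuncture libraries, and 48 genes had r over 0.8. For Hif1a it was ENSRNOG00000006335 (r 0.97, rho 0.94), for Slc2a1 ENSRNOG00000013949 (r 0.95, rho 0.87), for Ldha ENSRNOG00000036814 (r 0.98, rho 0.98) and for Gapdh ENSRNOG00000029360 (r 0.95, rho 0.92). For deviations from the group means, r with the nearest gene was 0.65 for Vegfa and 0.95 to 0.98 for the other members. The numbers of genes with r over 0.8 were 389, 231, 577 and 310 for these 4 members, so each followed a pattern that many genes shared.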

How the data were processed

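The levels of 5 genes were read in 12 libraries. The authors deposited a table of estimated counts in 78025 transcript rows and a file of FPKM values per library. The FPKM unit was read from the deposited values. Rows were paired by order, checked on 12003 rows above 2000 (median deviation 0.00114%). HTSeq 0.6.0 and the build Rnor_6.0 are named, per the submitters' processing notes. No aligner or assembler is given in the sources used here. Libraries were made from Trizol RNA with a NEBNext Ultra RNA kit, per the labels' protocols.

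Rows were summed per gene and tested with edgeR 4.0.16 in R 4.3.3 (quasi-likelihood, TMM, filterByExpr, all 12 libraries, no covariate), with Benjamini-Hochberg adjustment over 27885 genes and a threshold of 0.05. Standard errors and intervals were derived from the F statistic. The test was checked on simulated data, whose settings and outcome are not given here, so no assurance for these calls is drawn from that check. Log2 CPM had a prior count of 2. Alternatives were RLE and upper-quartile scaling, DESeq2 1.42.0, limma-voom, limma-trend of FPKM values as log2 with a pseudocount of 1 or 0.1 (limma 3.58.1), 2 other filters, Ensembl genes or Ensembl transcript rows alone, 2 groups alone, the 10 most abundant genes left out, scaling to Gapdh, a length trend removed, 1 surrogate variable (sva 3.50.0) and each replicate left out.

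All members are named, with the gene of highest Pearson's r for each. Members and lists were chosen with earlier results of these data known. The reference table (GRCr8) holds no Ensembl identifiers, so other pathway genes and cell type markers were not analysed here.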

Additional observations from a re-analysis of the deposited data

Results flagged for a closer look

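In 2 of 15 sets of 4 libraries (5 genes in 3 groups), a library lay far from the other 3 by Dixon's criterion on log2 CPM, which chance alone meets in about 1 in 20 sets. Vegfa was at 11.5 CPM in normal replicate 13, against 13.5 to 13.7 CPM in the other 3 normal libraries. Without that library the log2 fold changes of Vegfa against normal were 0.54 for the HIBD model and 0.62 for the acupuncture group. Slc2a1 was at 64.6 CPM in acupuncture replicate 35, against 95.5 to 101 CPM in the other 3 acupuncture libraries.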

How the results depend on the processing

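Over the alternatives run, the log2 fold change of Vegfa against normal stayed above 0 in both comparisons. It ranged from 0.48 to 0.69 (HIBD model) and from 0.58 to 0.75 (acupuncture) with a library left out. It passed with DESeq2 (0.61 and 0.69), and in the acupuncture comparison also with the 2 groups alone (0.68) and on log2(FPKM + 0.1) (0.53), so the number of the 5 genes past the threshold was 1 in these settings and 0 otherwise. With a library left out that number was 0 to 1 in both comparisons with normal, 1 being without normal replicate 10.

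No other fold change of the 5 genes passed in any alternative, but several changed sign. Between HIBD model and normal, Hif1a was 0.03 scaled to Gapdh and 0.15 with 1 surrogate variable, Slc2a1 0.06 with 1 surrogate variable and Gapdh 0.06 with the length trend removed. Between acupuncture and HIBD model, scaling to Gapdh gave -0.02 for Vegfa and -0.04 for Slc2a1, and with a library left out they ranged from -0.01 to 0.19 and from -0.05 to 0.22. Between acupuncture and normal, 1 surrogate variable gave 0.13 for Hif1a, 0.26 for Slc2a1 and -0.41 for Ldha, limma-voom 0.00 for Ldha, and both FPKM settings -0.14 for Ldha. Gapdh was 0.01 with RLE and DESeq2, 0.04 with upper-quartile scaling, 0.03 with the filter of 1 CPM in 4 libraries, 0.06 with Ensembl genes, 0.07 with Ensembl transcript rows and 0.14 with the length trend removed. With a library left out Ldha ranged from -0.13 to 0.11 and Gapdh from -0.06 to 0.05. Scaling to Gapdh moved the median of all genes by 0.11 between HIBD model and normal and by -0.11 between acupuncture and HIBD model. Hif1a moved from -0.11 to 0.03 in the former comparison. In the latter, Vegfa moved from 0.09 to -0.02 and Slc2a1 from 0.09 to -0.04. The length trend moved that median by 0.09 between HIBD model and normal and by 0.07 between acupuncture and normal, and log2(FPKM + 0.1) by -0.12 in the latter. The causes of the changes of sign were not tested. Over all genes edgeR called 27 (HIBD model against normal), 0 (acupuncture against HIBD model) and 23 (acupuncture against normal), and 23 alternatives gave 0 to 3753, 0 to 181 and 0 to 4324, the highest each with DESeq2. Without normal replicate 10 the comparisons with normal gave 3032 and 3094. No paired analysis was made because the labels give no pairing between libraries of different groups. The 4 libraries of each group, and an unknown number of reads per unit, limit the precision.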
